A study of Mus musculus with 6 samples.

Results

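The endocardium is the endothelial sheet that lines the heart's chambers. Here 127 endocardial endothelial cells were picked out of 30014 kept cells (34940 deposited) in 6 single-cell RNA libraries of mouse ventricles. A cell was kept with at least 1000 unique molecular identifiers (UMIs, counted RNA molecules), at least 200 genes and at most 20% mitochondrial UMIs. Members were chosen by raw UMIs of 12 genes. A cell was called endocardial with at least 3 UMIs over Cdh5, Egfl7, Esam and Emcn, at least 1 UMI of Npr3, at most 1 of Gpihbp1, none of Prox1 or Mmrn1, at most 1 over Col1a2 and Csf1r, and at most 1 over Apln and Pgf. The levels of these genes are therefore not results below. The endothelial marker sum alone gave 8308 endothelial cells.

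Each library pooled the non-cardiomyocytes of 4 male mice aged 8 to 12 weeks. Wild-type (WT) mice were C57BL/6JRj, and knockout (KO) mice were the Trpm4-deficient strain B6.Cg-Trpm4tm1.2-PG; Trpm4 is a calcium-activated cation channel. All mice had surgery, either a sham operation examined at 24 h, or a ligation (tying off) of the LAD, the coronary artery of the front wall, examined at 24 h or 72 h. There was no sham group at 72 h. Each group is 1 library. Intervals on differences between single libraries therefore cover counting error only, and the test between genotypes or times came from 1 fit over all 6 libraries.

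Endocardial cells face the chamber blood. During development they signal to the muscle beneath, with neuregulin (Nrg1) as the best-known signal, and give rise to valve tissue through BMP and Notch pathways. In the adult, Npr3, the clearance receptor for natriuretic peptides, marks them in the ventricle, together with the clotting protein Vwf and the fenestral diaphragm protein Plvap. Capillary endothelial cells carry instead the machinery that takes up fatty acids, with Gpihbp1 as the anchor for lipoprotein lipase.

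The libraries gave 44 endocardial cells in WT sham, 38 in KO sham, 11 in WT at 24 h after ligation, 19 in KO at 24 h, 6 in WT at 72 h and 9 in KO at 72 h. The sham libraries therefore held most of them, and every value from a ligated heart rests on 19 cells or fewer. Median depth in these cells ran from 5203 to 12995.5 UMIs, against 2236.5 to 4158 in capillary cells (same limits, no Npr3, at least 2 Gpihbp1 UMIs; 5966 cells). Their median mitochondrial share was 2.59% to 3.49%, against 5.15% to 10.7% in capillary cells. Pairs of libraries shared 3 to 14 cell barcodes, and no endocardial cell's barcode was among them.

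Vwf and Plvap were not used to choose the cells, and 119 of the 127 (93.7%) held a UMI of at least one of them. Vwf was found in 86.8% to 100% of endocardial cells by library and in 2.16% to 10.5% of capillary cells. With every cell thinned to 1000 UMIs these ranges were 44.4% to 83.3% and 0.540% to 1.61%. Most members thus held markers of the label that the rule did not use, with exceptions that follow. Vwf is also on the list of 8 venous markers used here, and no venous class was defined for comparison. In the sham libraries 5 of 7 tested venous markers were higher than in capillary cells and 0 lower (median log2 fold change 4.04).

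At the edge of the rule, 22 members held exactly 1 Npr3 UMI, and 63.6% of those held Vwf and 11 of them Cytl1. Of the 105 with 2 or more, 95.2% held Vwf and 85.7% Cytl1. Just outside, 1150 cells met every limit except Npr3, and 11.7% of them held Vwf and 3.57% Cytl1. Another 6 cells missed only by a second Gpihbp1 UMI, and 3 of those held Vwf.

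Some members carried markers of other cells: 22 of 127 had 10 or more UMIs of pericyte, macrophage, neutrophil, cardiomyocyte, mesothelial or lymphocyte markers. They were 7 cells in WT sham, 4 in KO sham, 2 and 3 in WT and KO at 24 h, 1 in WT at 72 h and 5 of 9 in KO at 72 h. In that last library 4 cells held 12 to 18 UMIs of Lyz2, a myeloid lysozyme, and at most 2 of Vwf. The 10 macrophage markers summed to 1316 CPM there (UMIs per 1000000 UMIs of the summed cells), against 15.5 to 128 in the other libraries, and to 154 without the 5 cells. The 8 pericyte markers summed to 1657 CPM in WT at 24 h and to 63.9 to 666 elsewhere, and to 127 in WT at 24 h without such cells. The part of these cells in the results was not tested, and values without them are given beside some of the results they move.

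The first question was how many endothelial cells were endocardial in each heart. The share was 1.72% in WT sham (exact 95% binomial interval 1.25% to 2.30%) and 1.10% in KO sham (0.779% to 1.51%). At 24 h after ligation it was 1.46% in WT (0.732% to 2.60%) and 2.33% in KO (1.41% to 3.62%), and at 72 h 1.88% in WT (0.691% to 4.04%) and 2.21% in KO (1.01% to 4.15%). Without cells holding other classes' markers the KO share at 72 h was 0.980% (0.268% to 2.49%). Over the same libraries the capillary share was 72.2%, 81.0%, 65.0%, 68.2%, 47.2% and 30.4%. The plot of both shares sets the endocardial share beside the capillary one.

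**Figure D1:**
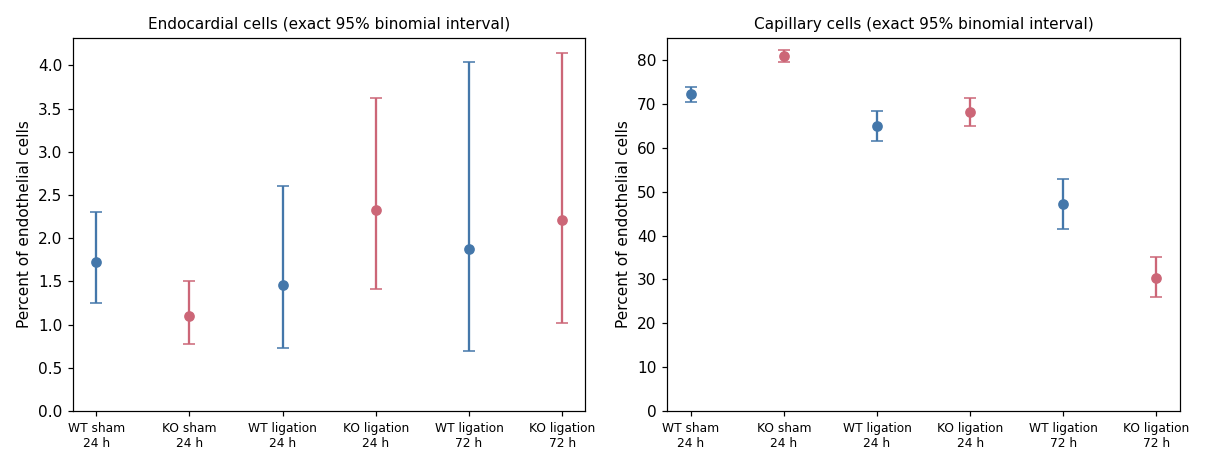
Percent of endothelial cells that were endocardial (left) or capillary (right) in each of the 6 libraries, blue WT and red KO; bars are exact 95% binomial intervals. Of the endocardial shares, KO sham (0.779% to 1.51%) and KO at 24 h (1.41% to 3.62%) barely overlap, while the capillary share is lowest at 72 h, at 47.2% and 30.4%.

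The KO share was 1.23 percentage points higher at 24 h than in sham (Newcombe 95% interval 0.304 to 2.55), and the WT share differed by -0.258 (-1.13 to 0.960). KO sham was lower than WT sham by -0.621 points (-1.27 to -0.0252). The other differences at 24 h and 72 h had intervals that included 0. With at most 10% mitochondrial UMIs the KO share was 3.13% (1.89% to 4.84%) at 24 h and 2.18% (1.54% to 2.97%) in sham. WT sham was then at 2.95% (2.12% to 4.00%). That limit kept 1747 of 3456 endothelial cells in KO sham and all 38 endocardial ones. With at least 2 Npr3 UMIs the shares were 1.72% (0.942% to 2.87%) in KO at 24 h and 0.955% (0.658% to 1.34%) in KO sham. WT sham was then at 1.45% (1.02% to 1.99%). Within either setting these intervals overlapped. Neither KO at 24 h against KO sham nor KO sham against WT sham was then clear of 0 by the Newcombe interval. As a share of all kept cells, which include incoming leukocytes, endocardial cells went from 0.826% in WT sham to 0.344% at 24 h and 0.136% at 72 h, and in KO from 0.652% to 0.282% and 0.199%.

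The second question was what sets endocardial cells apart from capillary cells of the same heart. UMIs were summed per class in each library and compared with edgeR's quasi-likelihood test with the library as a block. Only the 2 sham libraries held at least 20 endocardial cells. There, 1126 of 11199 genes (10.1%) were higher in endocardial cells and 1275 (11.4%) lower (21.4% either way), at a Benjamini-Hochberg adjusted p under 0.05. Over all 6 libraries, a fit added after seeing the data, 731 of 5117 genes (14.3%) were higher and 794 (15.5%) lower (29.8% either way). Of the 2401 genes called in the sham libraries, 1533 could be tested over 6 libraries and 1281 were called there in the same direction. The 2-library fit has 1 residual degree of freedom, so the adjusted p values printed are those over 6 libraries. All changes below are log2 fold changes, and standard errors come from the fold change and its F statistic.

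Known endocardial markers outside the gate were far higher: 15 of 17 tested passed upward and none downward, with a median of 6.32 against -0.09 over all genes. Cytl1, a small secreted protein, was at 1284 CPM in WT sham, 2018 in KO sham, 981 and 2087 in WT and KO at 24 h, and 341 and 473 at 72 h, while no capillary library exceeded 3.97. All 6 endocardial values lay far above all 6 capillary values (9.02 ± 0.18 SE in the sham fit; adjusted p = 2.1e-11 over 6 libraries). Vwf ran from 959 to 2334 CPM against at most 47.9 in capillary cells (6.32 ± 0.15; adjusted p = 1.2e-10). Plvap ran from 1130 to 2479 CPM against 9.30 to 345, with the highest capillary values in the 2 libraries at 72 h (6.83 ± 0.17; adjusted p = 5.2e-06). Nfatc1, a transcription factor of the valve-forming endocardium, and Cyp26b1 did not pass, at -0.02 ± 0.42 and -0.70 ± 0.46.

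Cytl1 lies on chromosome 5 (37735519 to 37739820, GRCm38), Vwf on chromosome 6 (125546774 to 125686679) and Npr3 on chromosome 15 (11839896 to 11907287), by the GENCODE M21 annotation.

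Genes with the largest differences included Cyp1b1 (a cytochrome P450 enzyme), the imprinted noncoding RNA H19, Smoc1 (a secreted BMP modulator), Gpm6a, Ahsg, Tmem108, Itgbl1, Inhba (an activin subunit), Cytl1, Col4a4, Nrg1, Ncam1, Dsg2 and Epha7. Smoc1 stood at 215 to 294 CPM in every endocardial library and at most 0.274 in the capillary ones (10.70 ± 0.47; adjusted p = 5.6e-13). Ahsg, a secreted glycoprotein, had no UMI in either 72 h library and no 6-library test. A count of 0 there limits it to 46.5 CPM in WT and 38.3 in KO, the level of 3 UMIs.

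Among signals to the muscle, 5 of 12 tested passed upward and 2 downward (median 0.27). Nrg1 was found at 323 CPM in WT sham, 140 in KO sham, 349 and 450 at 24 h, and 573 and 153 at 72 h, while no capillary library reached 1 CPM (8.90 ± 0.43; adjusted p = 3.9e-13). Bmp4, Tgfb1, Nos3 and Efnb2 did not pass in the sham libraries. Pdgfb, the signal that recruits pericytes, was lower in every library (-3.79 ± 0.23; adjusted p = 4.2e-08).

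Transcription factors divided, with 8 of 19 higher and 6 lower. The cardiac factor Hand2 (153 to 450 CPM against at most 8.39; 7.13 ± 0.25; adjusted p = 1.6e-11), Meis2 (5.36 ± 0.25), Foxc1 (4.61 ± 0.20), Gata6 (3.14 ± 0.26) and the venous factor Nr2f2 (2.95 ± 0.21) were higher. Sox17, an arterial factor, was at most 7.98 CPM in endocardial cells of the sham libraries and 132 to 220 in capillary cells of all 6 (-4.78 ± 0.38; adjusted p = 1.0e-08). Sox18, Fli1, Hey1 and the flow-responsive Klf2 and Klf4 were also lower, whereas Erg and Sox7 did not pass.

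BMP and TGF-beta receptors and targets were mixed, with 11 of 20 higher and 5 lower (median 0.91). The receptors Bmpr1a (5.92 ± 0.52), Acvr1 (2.05 ± 0.32) and Tgfbr2 (0.97 ± 0.19) and the target Id2 (3.38 ± 0.17) were higher. The receptor Acvrl1 (-1.87 ± 0.23) and the target Id1 (-2.20 ± 0.15) were lower. Of the natriuretic pathway outside the gate, Npr1, the signalling receptor, did not pass (-0.33 ± 0.25). The soluble guanylate cyclase subunits Gucy1b1 (4.54 ± 0.44) and Gucy1a1 (3.70 ± 0.38) were higher. They form the receptor for nitric oxide, not for natriuretic peptides.

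Hemostasis genes leaned upward: 12 of 21 passed higher and none lower (median 2.02), and over 6 libraries 7 of 13 and none (median 0.94). Besides Vwf these included the prostaglandin enzymes Ptgis (6.64 ± 0.27) and Ptgs1 (4.03 ± 0.20), the coagulation inhibitor Tfpi (2.71 ± 0.24) and the ATP-degrading Entpd1 (2.02 ± 0.17). Thbd and Plat did not pass. Of the leukocyte adhesion genes 5 of 14 were higher and 5 lower. Vcam1, which binds leukocyte integrins, was at 1368 and 1145 CPM in the sham libraries against 32.7 and 24.1 in capillary cells (5.30 ± 0.15; adjusted p = 7.4e-09). Icam1, of the same kind, was higher too (2.38 ± 0.20 over 6 libraries; adjusted p = 7.8e-08).

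Capillary markers outside the gate mirrored this: 17 of 18 were lower and 1 higher (median -4.77). Rgcc was at 747 to 1409 CPM in capillary cells and at most 23.9 in endocardial ones (-7.09 ± 0.24; adjusted p = 2.3e-10). The 10 lowest named genes were Aqp7 (a glycerol channel), Pcdh17, Rgcc, C1qtnf9, Thrsp, Car4, Btnl9, AW112010, St8sia4 and Timp4. Over 6 libraries, interferon-induced genes were lower in 16 of 22 and higher in none (median -1.07), and antigen-presenting MHC genes were lower in 7 of 9 and higher in none (median -0.77). The plot of gene lists shows these groups side by side.

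**Figure D2:**
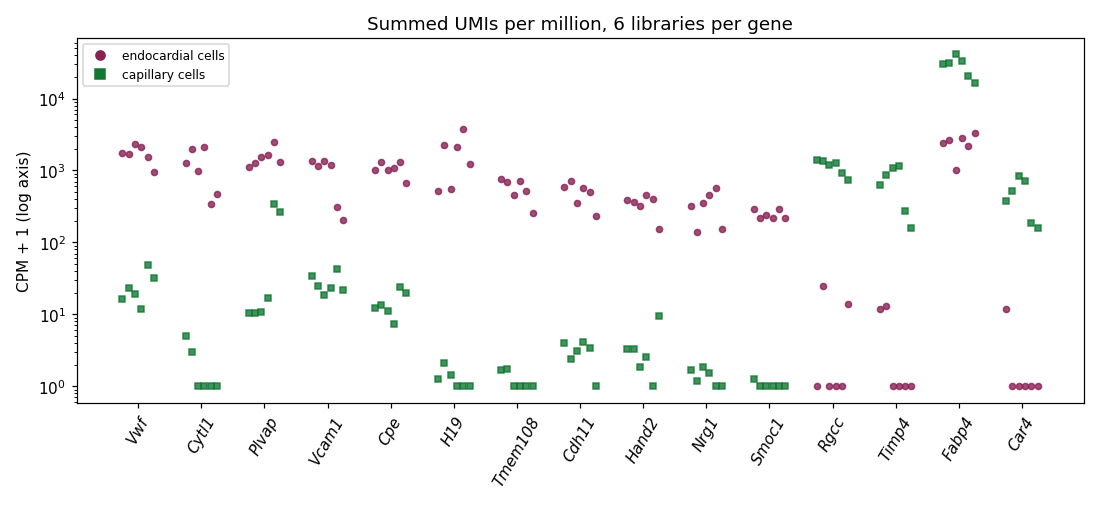
CPM plus 1 (log axis) of 15 genes in summed endocardial cells (circles) and capillary cells (squares), 1 symbol per library. Cytl1, H19, Smoc1 and Nrg1 are separated in all 6 libraries, and Rgcc, Timp4 and Car4 are separated the other way.

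**Figure D3:**
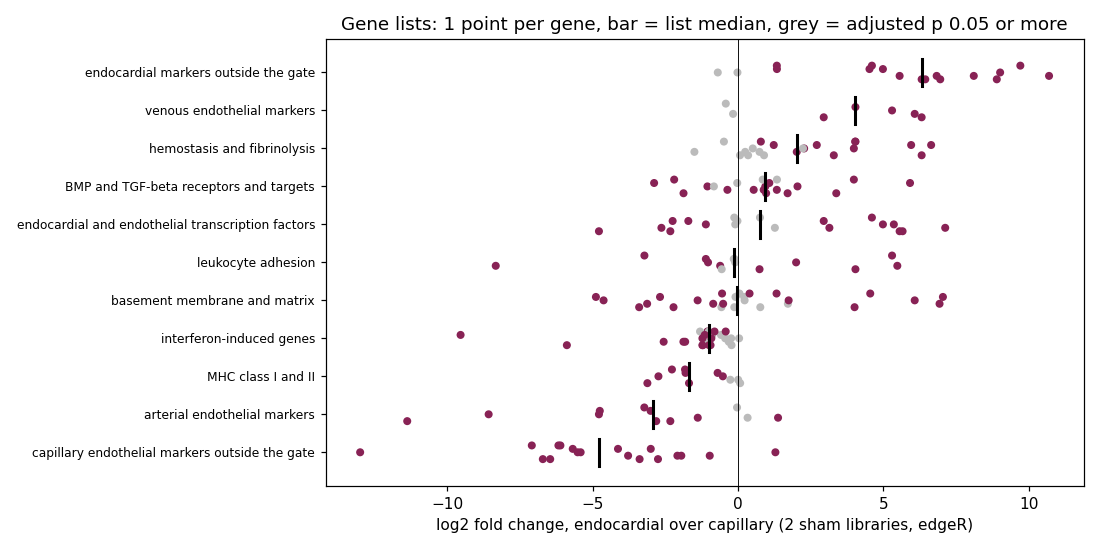
Log2 fold change of endocardial over capillary cells for each tested gene of 11 lists, from the 2 sham libraries; black bars are list medians and grey points did not pass. The endocardial marker median is 6.32 and the capillary marker median -4.77.

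A few fibroblast matrix genes were also high in these cells, although Col1a2 was capped by the gate. Of 9 fibroblast markers 7 were higher than in capillary cells and none lower. They summed to 5365 CPM in WT sham and 4040 in KO sham, against 86.4 and 84.5 in capillary cells, but to 110 and 160 in endocardial cells without Dcn, Lum, Gsn and Mfap5. The collagen gene Col3a1 was at 25.7 and 55.8 CPM. The proteoglycan gene Dcn was found in 111 of 127 cells and in 0.662% to 6.90% of capillary cells. After thinning it was found in 33.3% to 83.3% of endocardial cells. Fibroblasts, the class with most Dcn, held 6701 to 14221 CPM in the same libraries, and their part in these values was not tested. Of 8 pericyte markers 5 were also higher than in capillary cells in the sham libraries and 0 lower (median 1.97). Over 6 libraries only 1 pericyte marker could be tested, and it did not pass.

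Arterial endothelial cells (same limits, no Npr3, at most 1 Gpihbp1, at least 2 UMIs over Sema3g, Gja4, Gja5 and Fbln5; 225 cells) gave a second contrast. In the sham libraries 530 of 5418 genes (9.78%) were higher in endocardial cells and 528 (9.75%) lower (19.5% either way). Over 6 libraries the counts were 202 (14.4%) and 161 (11.5%) of 1398 (26.0% either way), and 70 and 82 of 974 without cells holding 10 or more UMIs of other classes' markers. Endocardial markers outside the gate were higher in 14 of 15, with none lower (median 3.97 against 0.01 over all genes). H19 (8.09 ± 0.35; adjusted p = 1.7e-04), Cdh11 (5.89 ± 0.31; adjusted p = 9.3e-06) and Nrg1 (5.92 ± 0.47; adjusted p = 5.4e-05) were again higher. Other genes went against the capillary contrast. Gucy1b1 (-1.72 ± 0.24) and Gucy1a1 (-1.91 ± 0.26) were lower than in arterial cells. In the sham libraries MHC genes were higher in 4 of 6 and lower in 0 (median 0.81). Over 6 libraries, the setting given above for capillary cells, they were higher in 1 of 3 and lower in 0 (median 0.51). The genes most in favour of arterial cells included Tagln and Myh11, smooth muscle contractile genes, at 3062 and 1587 CPM in WT sham arterial cells. All 7 smooth muscle markers tested were higher in the arterial class, and 28.1% and 31.1% of arterial cells in the WT and KO sham libraries held 10 or more UMIs of other classes' markers.

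The endocardial cells also varied among themselves. Npr3 ran from 1 to 39 UMIs per cell, with a median of 6, and 77 cells held 5 or more. Cytl1 was found in 101 of the 127 cells and Fabp4, a fatty acid carrier abundant in capillary cells, in 100. H19 was found in 56 cells and Lyve1, a hyaluronan receptor, in 43. Of the 8 cells with neither Vwf nor Plvap, 6 held exactly 1 Npr3 UMI.

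The next question was whether endocardial cells of KO hearts differed from those of WT hearts. In the sham libraries 34 of 1747 genes with at least 50 UMIs (1.95%) were 2-fold or more higher in KO and 22 (1.26%) lower (3.21% either way). The median gene differed by 0.02 (log2). Over all 6 libraries, edgeR's quasi-likelihood test with genotype and condition as terms and no interaction, added after seeing the data, called 1 of 2028 genes between genotypes, lower in KO (0.0493% lower, 0% higher, 0.0493% either way); 72 had an unadjusted p under 0.05. That gene was the chemokine Ccl2 (-5.75 ± 0.37 SE; adjusted p = 0.0015), whose UMIs in WT sham lay mostly in 1 cell. In WT at 24 h, 88 Ccl2 UMIs lay in 1 cell. Leaving out WT at 24 h gave 16 genes and leaving out any other library 2. Trpm4 itself had 1 UMI in WT sham, 0 in KO sham, 3 and 0 in WT and KO at 24 h, and 1 and 1 at 72 h, which is too few to check the labels. It was 10.3 CPM in WT sham capillary cells and 6.89 in KO sham ones; whether 3' reads fall outside the deleted part is not given in the sources used here.

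H19 had 143 UMIs (524 CPM) in WT sham and 566 (2257 CPM) in KO sham, a log2 ratio of 2.11 (exact 95% Poisson interval 1.84 to 2.38). At 24 h after ligation the ratio was 1.94 (upper end of its 2-sided interval 2.41; 2.16 without the highest cells), and at 72 h it lay the other way, at -1.62 (-1.97 to -1.28). H19 was found in a similar share of cells, 40.9% in WT sham and 42.1% in KO sham. Leaving out the highest cell of each library left 2.13 in sham. H19 is transcribed from chromosome 7 (142575529 to 142578143, GRCm38).

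Pecam1 and Cd93, endothelial surface proteins, were at least 1.5-fold higher in KO in all 3 conditions, and the splicing-related Rsrp1 lower in all 3. Pecam1 was 1100 CPM in WT sham and 1815 in KO sham, 1101 and 1700 at 24 h, and 542 and 1176 at 72 h; every KO value lay above its WT partner, and above every WT value. Over 6 libraries Pecam1 differed by 0.76 ± 0.20 SE, which did not pass after adjustment (edgeR adjusted p = 0.998; unadjusted 0.0060), nor did Cd93 (0.58 ± 0.20), Rsrp1 (-0.80 ± 0.21) or H19 (0.86 ± 0.73). In capillary cells the same ratios were 0.06, -0.05 and -0.43. Cd93 ratios were 0.61, 0.67 and 0.59, and 0.28 at 24 h and 0.29 at 72 h without the highest cell of each library. At 24 h the Cd93 ratio was 0.03 without cells holding other markers. Among genes with UMIs in at least 10 cells and at least 0.25 of the level in the highest other class, the largest sham ratios otherwise were Nbl1 (2.51), Edn1, a vasoconstrictor peptide (2.31, and 1.77 in capillary cells), and Adam15 (1.96) upward, and Hbegf (-3.32), Arid5b (-2.01), Prdx4 (-1.43) and Raph1 (-1.32) downward. Ccl2 (-6.15) and the pericyte gene Rgs5 (4.32) were outside these limits, with 97.8% of the WT and 61.8% of the KO UMIs, respectively, in 1 cell.

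Several apparent genotype differences rested on 1 cell. Hbegf encodes a growth factor of the EGF family. Of its 76 UMIs in WT sham, 86.8% came from 1 cell, and the ratio without the highest cells was -0.92. Ccl2, named after its values were seen, had 231 UMIs in WT sham and 3 in KO sham.

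After ligation, 28 of 602 genes (4.65%) were 2-fold or more higher in KO than in WT at 24 h and 21 (3.49%) lower (8.14% either way). At 72 h the counts were 29 (7.44%) and 26 (6.67%) of 390 (14.1% either way). Igfbp5, a binding protein of insulin-like growth factors, was 196 CPM in WT and 2609 in KO at 24 h (3.73, and 4.92 without the highest cells), but 2789 and 1585 at 72 h, where 99.4% of the WT UMIs came from 1 cell. Pi16 (2.44) and Slc9a3r2 (1.60) were also higher in KO at 24 h, with Pi16 at 0.88 without cells holding other markers. Ccn2, a matrix-associated growth factor, was lower (-1.68, and -1.93 in capillary cells), as were Lars2 (-1.59), Galnt1 (-1.51) and Rbms1.

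Within the same limits, the largest ratios of KO over WT at 72 h were S100a6 (4.38), Aprt (2.28), Actb (1.99) and Cyba (1.89) upward. Outside them, the myeloid gene Lyz2 was at 4.25, and at 1.17 without the cells holding other classes' markers, which were 5 of the 9 KO cells there; their part in the other ratios was not tested. Without the highest cells Aprt stood at 0.97. Bace2 (-2.38), Selenop (-2.38), Tm4sf1 (-1.85) and the proteoglycan Bgn (-1.77) were lower. Of the Selenop UMIs in WT at 72 h, 88.3% came from 1 cell, and the ratio without the highest cells was 0.0298.

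The last question was how endocardial cells changed after ligation. Since no ligation library reached 20 endocardial cells, the minimum was lowered to 5 after seeing the data. At 24 h against sham, 42 of 1144 genes (3.67%) were 2-fold or more higher in WT and 68 (5.94%) lower (9.62% either way), and in KO 25 of 1125 (2.22%) and 36 (3.20%; 5.42% either way). Of 986 genes measured in both, 7 (0.71%) were higher in both genotypes and 2 (0.203%) lower in both. The 6-library fit called 1 of 2028 genes at 24 h against sham, higher (0.0493% higher, 0% lower, 0.0493% either way), with 103 at an unadjusted p under 0.05. It was Sprr1a, described below, and no gene passed under 6 of the other settings. Leaving out KO sham gave 2 genes, WT at 24 h 3 and KO at 24 h 6.

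The 2 lower genes were Dbp, a clock-controlled transcription factor, and Gsta4, a glutathione transferase. Dbp was 444 CPM in WT sham and 235 in KO sham, and 87.2 and 63.0 at 24 h after ligation, with ratios of -2.35 (-3.59 to -1.32) and -1.90 (-3.28 to -0.77). In capillary cells Dbp was lower as well, at -3.72 and -3.40. Gsta4 was 334 and 315 CPM in sham and 87.2 and 135 at 24 h (-1.94 and -1.22), while the capillary ratios were 0.35 and 0.31. Without the highest cells the Gsta4 ratios were -3.13 and -1.37.

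The higher genes named were the glycolytic enzymes Pgk1 and Tpi1, the cytokine Mif (1.72 in WT and 1.12 in KO) and the cell cycle gene Ccnd1 (1.25 and 1.06). Without the highest cells Mif was at 0.52 in WT, and in KO it was at -0.38 with at least 2 Npr3 UMIs. The hypoxia and glycolysis list had a median of 0.82 in WT (3 of 8 measured genes past 2-fold, none lower) and 0.81 in KO (2 of 6, none lower; 0.25 with at least 2 Npr3 UMIs), against -0.06 and 0.03 over all genes; capillary medians were 0.35 and 0.72. These values leaned on single cells. Of the Pgk1 UMIs at 24 h, 75.8% in WT and 52.8% in KO came from 1 cell, and without the highest cells the ratios fell from 2.09 to 0.50 in WT and from 1.26 to 0.81 in KO. Tpi1 fell likewise, from 1.37 to 0.58 and from 1.03 to 0.38.

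Sprr1a, a cornified-envelope protein named after its values were seen, had 1 and 5 UMIs in the sham libraries and 79 and 166 at 24 h. In each of these libraries all its UMIs lay in 1 cell. Lyve1, also named afterwards, was spread more widely: 158 and 207 CPM in sham, 589 and 738 at 24 h, 0 and 25.6 at 72 h. It was found in 6 of 11 WT and 11 of 19 KO cells at 24 h, but 74.1% of the WT UMIs came from 1 cell. Lymphatic cells, the class with most Lyve1, held 784 to 3310 CPM of it in the same libraries. The plot of single cells shows both patterns.

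**Figure D4:**
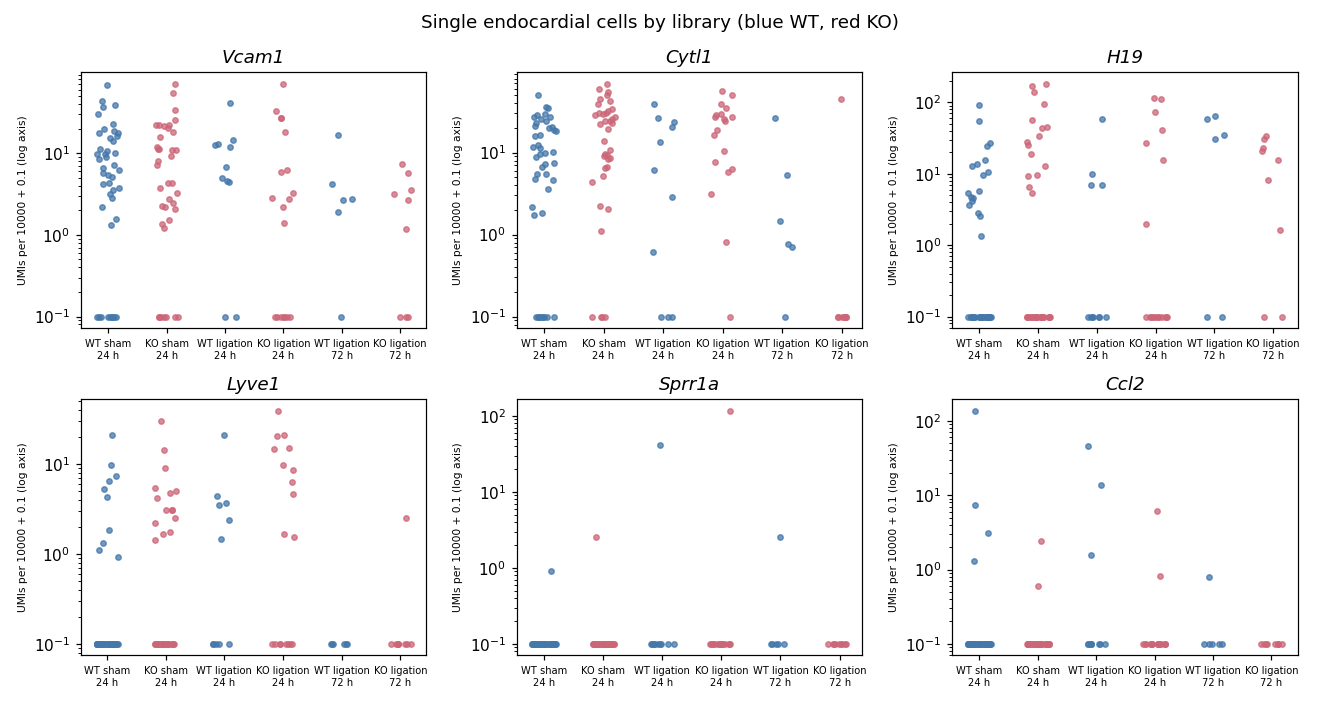
UMIs of 6 genes scaled to each endocardial cell's total, plus 0.1 (log axis), by library, blue WT and red KO; points at the bottom have no UMI. Vcam1, Cytl1 and H19 are spread over many cells, while the Sprr1a UMIs of each library that has any lie in 1 cell and most Ccl2 UMIs of WT sham in 1 cell.

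Between 24 h and 72 h, 33 of 432 genes (7.64%) were 2-fold or more higher in WT and 53 (12.3%) lower (19.9% either way), and in KO 26 of 544 (4.78%) and 55 (10.1%; 14.9% either way). Of 403 genes measured in both, 5 (1.24%) were higher in both and 16 (3.97%) lower. The 6-library fit called 9 of 2028 genes (0.444%), 1 higher (0.0493%) and 8 lower (0.394%). The higher gene was Gja4 (2.66 ± 0.28; adjusted p = 0.018), and the lower ones were Vcam1, Crip1, Cp, Lyve1, Ccl2, Sprr1a, Tppp3 and Cebpd. In WT at 24 h, 1 cell held 79 UMIs of Sprr1a, 88 of Ccl2 and 40 of Lyve1. That cell had 19220 of the library's 91703 endocardial UMIs. Leaving out KO at 72 h left 1 gene, which was higher; leaving out WT at 24 h gave 56, and leaving out either sham library or KO at 24 h gave 21 to 24. Vcam1 was 1368 and 1145 CPM in the sham libraries, 1352 and 1187 at 24 h, and 310 and 204 at 72 h. Both 72 h values lay below the other 4, with ratios of -2.13 (-2.89 to -1.44) in WT and -2.54 (-3.39 to -1.78) in KO, and -2.28 ± 0.28 in the 6-library fit (edgeR adjusted p = 0.029). Without cells holding other classes' markers these were -2.44 and -2.77, and without the highest cells -1.65 and -2.83. In capillary cells the ratios were 1.24 and -0.10.

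The copper carrier Cp (-2.86 and -2.76), the lipid phosphatase Plpp3 (-2.11 and -2.54), the NF-kB inhibitor Nfkbia (-2.37 and -1.49) and the co-receptor Nrp1 (-1.04 and -1.72) were lower in both genotypes too. Nrp1 in WT was at -0.73 without cells holding other markers. Also lower were Crip1, Cytl1, Serinc3, Car8, Ltbp4, Aldoa and Ece1. Cytl1 at 72 h came from 5 of 6 WT cells but from 1 of 9 KO cells. As a group, 6 of 9 measured endocardial markers were 2-fold or more lower in KO at 72 h and 2 of 9 in WT, with medians of -1.28 and 0.16. Their summed level was 5879 CPM in KO at 72 h, 5869 without the 5 cells with other markers, and 10553 to 12387 in the other libraries. In KO at 72 h, 1 cell outside those 5 held 27795 of the library's 78245 endocardial UMIs. It had 4 UMIs of Vwf and 0 of Cytl1, and its part in these sums was not tested.

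Pam, a peptide-processing enzyme, the peroxidase Prdx2 (1.87 and 1.17) and Sub1 (1.07 and 1.31) were higher in both genotypes at 72 h. Pam ratios were 2.28 (1.32 to 3.34) and 1.51 (0.70 to 2.36), and 2.12 and 1.49 without the cells with other markers. Gja4, a vascular gap junction protein, was 103 and 67.8 CPM in sham, 218 and 198 at 24 h, and 1488 and 1099 at 72 h, the 2 highest values. It was found in 4 of 6 and 5 of 9 cells there. Gja4 is also 1 of the genes that defined the arterial class above. The 12 arterial markers, Gja4 among them, summed to 1751 CPM in WT and 1483 in KO at 72 h. In the other libraries they summed to 459 to 578 CPM. The screen for other classes' markers held no arterial list. The part of cells with arterial markers in the 72 h values, Vcam1 and Cytl1 included, was not tested. The matrix gene Fn1 was 992 and 1291 CPM at 72 h and 65.4 and 315 at 24 h, but in KO its ratio of 2.04 became -0.47 without the cells with other markers.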

How the data were processed

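Non-cardiomyocytes of mouse ventricles were profiled in 6 droplet libraries. The authors made the deposited UMI counts per gene and cell with Cell Ranger 6.0.0 (mm10), per the file headers and the submitters' processing notes. The members and gene lists were chosen with earlier results of these data known.

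Counts were summed per class and library. Endocardial cells were compared with capillary or arterial cells with edgeR 4.0.16 (R 4.3.3; filterByExpr, TMM, library as block, Benjamini-Hochberg), tested on simulated data; DESeq2 1.42.0 was an alternative. A second edgeR fit, added after seeing the data, took the 6 endocardial sums with genotype and condition as terms (2 residual degrees of freedom, no interaction). The gate genes were left out. Within endocardial cells, ratios of summed UMIs have exact conditional Poisson intervals, a minimum of 50 UMIs over the pair, and 0 set to 3 UMIs. Named genes were the 15 highest and 10 lowest past the class test in the same direction in every library tested at 100 CPM or more, and for pairs of libraries the 12 largest each way that were 2-fold in both genotypes (between genotypes 4 each way, plus those 1.5-fold in all 3 conditions), with UMIs in at least 10 cells and at least 0.25 of the level in the highest other class. Doublets were kept; Scrublet (scanpy 1.11.5) served as an alternative. Deposited totals were 20995280 to 45649061 UMIs per library. 1 gene that the rule names is not reported here.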

Additional observations from a re-analysis of the deposited data

Results flagged for a closer look

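For 5 genes the 2 genotypes moved in opposite directions by 2-fold or more, with counting intervals clear of 0; with 1 library per group the difference was not tested. Gstp1, a glutathione transferase, had a log2 ratio of -1.35 at 24 h against sham in WT and 1.33 in KO. From 24 h to 72 h S100a6, a calcium-binding protein, had -4.14 in WT and 1.51 in KO, and 78.0% of its KO UMIs at 72 h came from 1 cell. Over the same interval Actb had -1.13 and 1.61, the flow-responsive factor Klf2 -1.93 and 1.19, and Bace2 1.20 and -1.01.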

How the results depend on the processing

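Of the 278 alternative values for shares, counts and list medians, 214 stayed within a set tolerance: the counting interval for share differences, 1.5 times for counts, and the order-statistic interval of the median for lists. Within their intervals, 6 of 70 share differences changed sign and 19 more moved by over 1.5 times. KO minus WT at 72 h went from 0.331 points of endothelial cells to -0.337 with at least 2 Npr3 UMIs and -0.582 without cells holding other classes' markers. Share differences left their interval in 3 cases: with at most 10% mitochondrial UMIs to -1.14 points of endothelial cells (WT, 24 h against sham) and -0.641 of kept cells (KO, 24 h against sham), and with cells thinned before the gate to -1.28 (WT, 72 h against 24 h), where 0 of 202 WT cells at 72 h remained endocardial, which allows up to 1.49% by 3 counts (exact upper limit 1.81%). Genes past 2-fold numbered 110, 61, 86, 81, 56, 49 and 55 for WT and KO at 24 h against sham, WT and KO at 72 h against 24 h, and KO against WT in sham, at 24 h and at 72 h. Thinning gave 9, 3, 9, 11, 10, 8 and 3; a minimum of 20 UMIs gave 522, 319, 294, 306, 345, 220 and 217; one of 100 UMIs gave 30, 14, 38, 32, 15, 16 and 23. KO against WT in sham also gave 34 with at least 2 Npr3 UMIs and 86 with means over cells. Against capillary cells 2401 genes became 1525 with all 6 libraries, 1028 with DESeq2, 395 with thinning and 1483 without cells holding other classes' markers, and thinning gave 379 over 6 libraries. Against arterial cells 1058 became 363 with all 6 libraries, 253 with DESeq2 and 331 with thinning; over 6 libraries DESeq2 gave 564, thinning 63 and cells without other markers 152. Leaving out 1 library of the 6 gave 1134 to 1698 against capillary and 189 (without KO sham; 202 without WT sham) to 442 against arterial cells. The KO glycolysis median was 0.25 with at least 2 Npr3 UMIs. Of single genes, Mif in KO at 24 h reversed to -0.38 with at least 2 Npr3 UMIs, and Selenop at 72 h went from -2.38 to 0.0298 without the highest cells. The causes were not tested, beyond fewer UMIs under thinning. Both class comparisons are paired by library, and without the library block 1947 genes passed against capillary and 1061 against arterial cells. The 6-library genotype and condition fit called 1 gene between genotypes, 1 at 24 h against sham and 9 at 72 h against 24 h. Without a low-count filter it called 11, 16 and 82. Without the block of the other term 0 passed between genotypes (40 at an unadjusted p under 0.05), 1 and 8. At 24 h against sham 0 passed with DESeq2, total-count scaling, median-of-ratios size factors, at least 2 Npr3 UMIs, thinning and doublet removal, where 11 to 109 had an unadjusted p under 0.05. Leaving out 1 library gave 2 to 16, 1 to 6 and 1 to 56 genes. Leaving out a sham library from the 2-library fit leaves no residual degrees of freedom. Counts of 6 to 19 cells per ligation library limit every value after ligation.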
